A study of Mus musculus with 2 samples.

Results

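Distal sites with long reproducible footprints are stretches of open chromatin in the mouse adrenal gland in which both samples recorded a long protected gap at the same place. They were chosen from the deposited peak and footprint lists as merged peaks seen in both replicates. Each lay more than 1 kb (1000 bp) from every transcription start in the GENCODE M21 gene annotation. Each also held a footprint of 20 bp or longer in replicate 1 overlapping one of 20 bp or longer in replicate 2. This rule selected 11545 of 26626 distal shared peaks, or 43.4%, out of 48303 shared peaks in all. The other 15081 distal shared peaks are the comparison set below. DNase-seq, in which accessible DNA is cut by the enzyme DNase I and the cut ends are sequenced, was done on 2 biological replicates of 1 group. The labels give adrenal gland tissue of B6CASTF1/J females, an F1 hybrid bred from the strains C57BL/6J and CAST/EiJ, 10 days old, and each sample names 3 females. The labels name no cell type within the gland, so each value can mix cortex, medulla, capsule, vessels and blood, and a weak site in all cells cannot be told apart from a strong site in a few. There is no treatment or second genotype, so values are set between replicates and between kinds of site. As a check of the tissue label, a shared peak at the promoter was found for 13 of 17 steroidogenesis genes and 14 of 20 chromaffin genes, markers of cortex and medulla, for none of 9 blood and immune genes, and for 13932 of 21911 protein-coding genes. The steroidogenesis genes without one were Cyp21a1, Mc2r, Hsd3b1 and Cyp11b2, and the chromaffin genes without one included Th, Ddc and Pnmt, the enzymes of catecholamine synthesis named further on. Of the adipocyte genes 9 of 10 had one, as did 9 of 10 capsule and fibroblast genes, so the cortex and medulla lists do not stand out in these counts.

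A footprint is a run of bases inside open chromatin that DNase I cuts less often than the bases around it, as happens where a bound protein covers the DNA. Most transcription factors cover short stretches, whereas CTCF, a protein with an array of zinc fingers that organises chromatin loops together with cohesin, contacts a long one. Other long contacts in animal cells include those of REST, a repressor of neuronal genes, of nuclear factor I (NFI) dimers, and of the factor TFIIIC, which binds the internal B box of transfer RNA (tRNA) genes for RNA polymerase III.

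The sequences of the sites show what the long footprints cover. All are from the RefSeq copy of the mm10 (GRCm38) mouse reference, read 5′ to 3′ on the strand given, and span both replicates' footprints together. In the first set, capitals mark the CTCF consensus CCANNAGNNGGC, in which N is any base, and an upstream module TGCANTNCC where it is present. The 3 sites with the module were the highest of their kind, and the nearest protein-coding genes were Cebpb, Ptma and Prok2. The set was picked after the values had been seen, to set the footprints with the module beside those without it.
Cebpb site, chr2:167685302-167685348 (+): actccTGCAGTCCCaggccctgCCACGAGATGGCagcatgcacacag
Farther Ptma site, chr1:86501761-86501806 (+): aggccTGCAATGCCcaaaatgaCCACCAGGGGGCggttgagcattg
Prok2 site, chr6:99804408-99804455 (+): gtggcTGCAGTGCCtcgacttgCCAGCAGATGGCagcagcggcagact
The 3 highest sites with a short upstream side and no module lay nearest to Ptma, Mybpc3 and Ppp1r1b, and their footprints began 4 to 7 bp before the consensus, against 22 bp in the set with the module.
Nearer Ptma site, chr1:86525459-86525492 (-): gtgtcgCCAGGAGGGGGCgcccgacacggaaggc
Mybpc3 site, chr2:91115252-91115285 (+): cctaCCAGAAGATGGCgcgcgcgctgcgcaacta
Ppp1r1b site, chr11:98342780-98342811 (+): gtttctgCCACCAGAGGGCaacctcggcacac
The highest site with the full CTCF consensus, nearest to Chd2 with a height of 16.02 in replicate 1 and 8.13 in replicate 2, began 20 bp before it in both replicates without the full module.
Chd2 site, chr7:73618504-73618546 (-): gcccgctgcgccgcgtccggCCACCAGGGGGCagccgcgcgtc

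In the second set, capitals mark matches to other consensuses. REST (TTCAGNACCNNGGANAG) and the tRNA B box (GGTTCGANTCC) were added after the values had been seen, because their footprints lie over long named elements. NFI (single site TTGGCA), RUNX (TGTGGT), NFY (CCAAT) and YY1 (AAGATGGC) stand for the commonest matches after CTCF, each at its highest sites.
REST near Camta1, chr4:151604682-151604713 (-): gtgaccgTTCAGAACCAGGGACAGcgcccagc
REST near Vstm2l, chr2:157913507-157913538 (-): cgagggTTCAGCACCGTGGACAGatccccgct
B box of tRNA gene n-TRcct3, chr11:115413301-115413339 (-): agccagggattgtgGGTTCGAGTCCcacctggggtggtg
B box of tRNA gene n-TLtag3, chr11:69124289-69124325 (+): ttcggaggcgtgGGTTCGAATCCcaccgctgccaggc
NFI near Txn2, chr15:77933923-77933976 (+): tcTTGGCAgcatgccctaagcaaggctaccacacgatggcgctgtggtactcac
NFI near Atoh8, chr6:72216816-72216855 (-): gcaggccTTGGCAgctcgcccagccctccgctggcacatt
RUNX near Igfbp7, chr5:77460537-77460584 (+): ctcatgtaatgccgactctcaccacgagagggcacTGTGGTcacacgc
NFY near Cdh20, chr1:102628226-102628282 (-): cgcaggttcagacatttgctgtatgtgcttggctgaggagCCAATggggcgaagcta
NFY near Mxi1, chr19:53314301-53314346 (+): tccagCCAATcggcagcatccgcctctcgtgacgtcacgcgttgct
YY1 near Foxc2, chr8:121113488-121113536 (+): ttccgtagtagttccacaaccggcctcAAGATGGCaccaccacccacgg
The Txn2 stretch also held the highest RUNX match, on its other strand, and the Igfbp7 stretch held a full CTCF match beside its RUNX match. The Txn2, Atoh8 and Foxc2 stretches each held a CTCF match with 1 letter changed as well. The highest YY1 match lay in the Mybpc3 site of the first set, where it overlapped the CTCF consensus.

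The third set holds 2 of the 3 longest stretches shared by both replicates, with the shared bases in capitals. The stretch nearest to Col18a1 holds more than 1 CTCF match with 1 letter changed.
Myl12b stretch, chr17:70963695-70963760 (+): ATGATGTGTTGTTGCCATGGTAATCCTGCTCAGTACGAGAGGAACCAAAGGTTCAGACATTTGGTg
Col18a1 stretch, chr10:77130730-77130793 (+): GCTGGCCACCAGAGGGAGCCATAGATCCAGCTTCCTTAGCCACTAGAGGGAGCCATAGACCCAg

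Long footprints were a minority of all footprints. Replicate 1 listed 339116 footprints in the whole genome, of which 49314 (14.5%) were 20 bp or longer, and replicate 2 listed 241536, of which 29889 (12.4%) were. The median length was 9 bp in both. In the chosen sites the longest pair of overlapping long footprints, called the leading footprint here, had a median length of 29 bp in replicate 1 and 29 bp in replicate 2, with the middle 50% between 25 and 32 bp in both. These lengths were part of the rule and are a description. A length of 40 bp or more was reached by 982 sites (8.51%) in replicate 1 and by 1206 (10.4%) in replicate 2, and the longest footprint of either measured 71 bp. Most sites, 10927, held a single such pair, 618 held more, and the most in 1 site was 5.

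The edges of the leading footprints lay close together in the replicates. The first base was the same in 27.8% of sites and the last base in 27.7%, and the first base differed by at most 2 bp in 67.7% and the last base in 67.6%. Both edges were the same to the base in 872 sites (7.55%). The median shift of either edge was 1 bp, and 90% of shifts were at most 6 bp. The rule asked for an overlap of 1 bp, and the stretch shared by both footprints made up at least 80% of their combined length in 73.4% of sites.

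Sites on either side of the length threshold were compared once. Where the shorter footprint of the best pair measured 20 bp, just inside, the 652 sites had median heights of 1.57 in replicate 1 and 0.905 in replicate 2. Where it measured 19 bp, just outside, the 573 sites had 1.46 and 0.862. The CTCF consensus lay within 75 bp of the centre in 17.8% of the sites at 20 bp and 19.9% of those at 19 bp.

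CTCF was the element found most often in the long footprints. The consensus CCANNAGNNGGC, searched on both strands with all 8 of its fixed letters matched, lay wholly inside the leading footprint of 4057 of 11545 sites (35.1%, exact 95% interval 34.27% to 36.02%). Stretches of the same length beside the footprint, inside the same peaks, held it in 17 of 11540 (0.147%). In windows of 30 bp around the longest footprint under 20 bp of other distal peaks it was found in 840 of 14808 (5.67%). Some of those peaks also held a footprint of 20 bp or longer, mostly in only 1 replicate, and the windows were not centred on it. Such a footprint was held by 16403 distal shared peaks in replicate 1, by 13211 in replicate 2 and by 11681 in both. With 1 letter allowed to differ, a setting added after the data had been seen, a further 3362 sites matched, which brings the share to 64.3%, against 2.89% of the stretches beside and 15.3% of the windows. Intervals cover counting error only, since sites of the same 2 samples are not replicates.

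The 4057 full matches used 93 different words of 12 bases. The 5 commonest made up 1500 of them (37.0%), and they are shown because they differ in their link to repeats. Capitals stand for the whole match.
Word A: CCACCAGGGGGC
Word B: CCAGCAGAGGGC
Word C: CCAGCAGGGGGC
Word D: CCACCAGGTGGC
Word E: CCAGCAGGTGGC
Word A was found at 380 sites, with median heights of 2.13 in replicate 1 and 1.54 in replicate 2, and word B at 338, with 1.89 and 1.37. Of the sites with word B, 31.95% had a leading footprint in which at least 50% of the bases were marked as repeats in the reference. For words A, C, D and E this share lay between 1.67% and 2.26%. In rodents, copies of the B2 family of short interspersed repeats are known to carry CTCF sites, but the reference used here does not name the repeats it marks. At the open letters, C or G filled position 4 of the match in 55.4% and 41.8% of sites, and A or G filled position 8 in 43.4% and 56.1%.

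The share of sites with the full CTCF consensus differed with the length of the footprint and was highest at 29 to 34 bp. In replicate 1 the consensus was found in 25.9% of sites whose footprint measured 20 to 22 bp and in 47.1% at 32 to 34 bp. It was found in 32.8% at 35 to 38 bp. In replicate 2 the share was 14.6% at 20 to 22 bp, 47.3% at 32 to 34 bp and 30.3% at 35 to 38 bp. At 39 to 45 bp it was 30.6% by the length in replicate 1 and 38.9% by that in replicate 2. At 29 to 31 bp it was 42.8% and 45.6%, with intervals that overlapped those at 32 to 34 bp. With 1 letter allowed to differ, replicate 1 had 75.5% at 29 to 31 bp, 81.5% at 32 to 34 bp and 68.3% at 39 to 45 bp. Replicate 2 then had 82.4%, 81.2% and 78.1%, so its highest share was at 29 to 31 bp. The plot of CTCF share by length shows the highest share of the full consensus at 32 to 34 bp in both replicates.

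**Figure D1:**
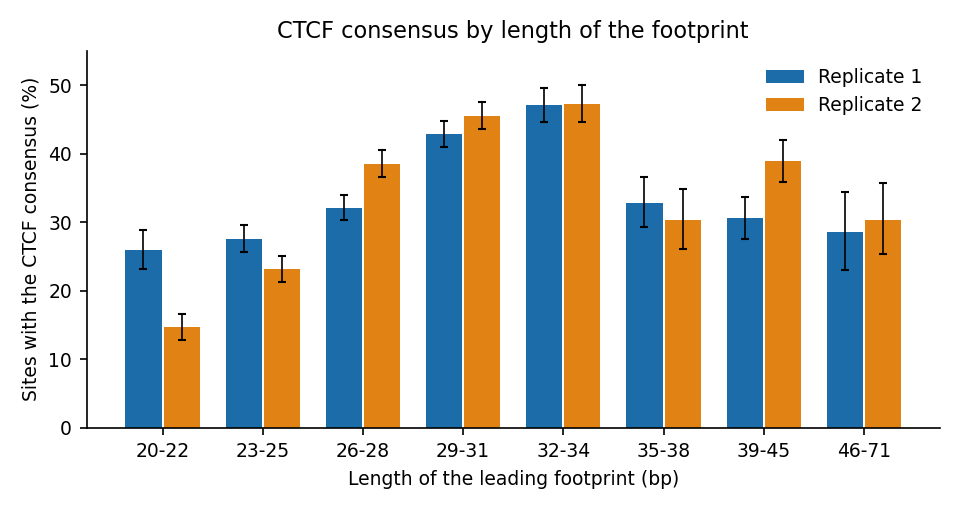
Share of sites (vertical axis, %) whose leading footprint holds the CTCF consensus, by footprint length in bp (horizontal axis), with bars for replicates 1 and 2 and lines for exact 95% binomial intervals. Both replicates are highest at 32 to 34 bp, with 47.1% and 47.3%.

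The footprints sat at fixed distances from the CTCF match. With the match read in the direction CCANNAGNNGGC, the upstream edge most often lay 5 bp before it, in 28.2% of the 4057 sites in replicate 1 and 32.02% in replicate 2. The downstream edge was more spread, with a median of 11 bp after the match and the middle 50% between 8 and 13 bp in replicate 1 and between 9 and 13 bp in replicate 2. A second group of upstream edges lay 20 to 23 bp before the match, with 328 sites (8.08%) in replicate 1 and 427 (10.5%) in replicate 2. The distances of 11 to 14 bp between both groups held 71 sites in replicate 1 and 48 in replicate 2. The plot of footprint edges shows a gap between the near and the far group on the upstream side and a single broad peak on the downstream side.

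**Figure D2:**
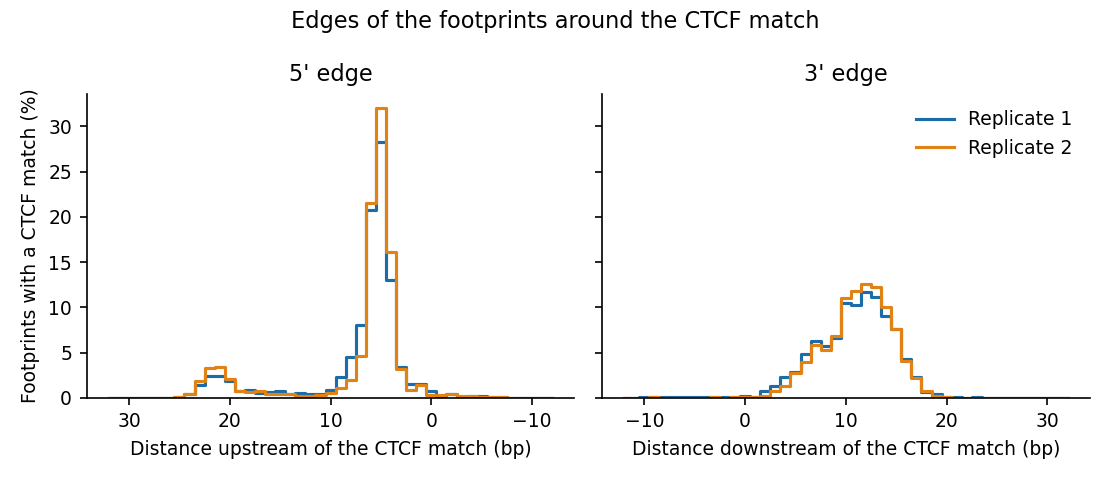
Percent of the 4057 footprints with a CTCF match (vertical axis) by the distance in bp from the match to the upstream edge (left) and the downstream edge (right), as step lines for replicates 1 and 2. A tall peak at 5 bp and a low one at 20 to 23 bp are seen upstream in both replicates.

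Sites whose footprint reached far upstream carried another short sequence there. The upstream edge lay 15 bp or more before the match in both replicates at 354 sites (8.73%), and at most 10 bp in both at 3280. The far-reaching footprints had median lengths of 41 bp in replicate 1 and 43 bp in replicate 2, and the near ones 29 bp in both. The module TGCANTNCC lay in the 25 bases before the match in 31.9% of the far-reaching sites (95% interval 27.1% to 37.1%) and in 1.43% of the near ones (1.05% to 1.90%). At least 6 of its 7 fixed letters were matched at 17 bp upstream in 60.7% and 3.78% of them. The module was written down after base counts of these footprints had been seen, so these shares describe it and do not test it. In textbook accounts of CTCF, the central zinc fingers read the core sequence and those towards the far end of the array read a module upstream of it.

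Both replicates gave the near form at 3280 of the 4057 sites, and they agreed less often on the far form, which both gave at 354. At 128 sites the upstream edge lay 15 bp or more before the match in replicate 1 and at most 10 bp in replicate 2, and at 187 sites it was the other way round. The other 108 sites had an edge at 11 to 14 bp in at least 1 replicate. The module was present at 12.5% of the 128, 11.2% of the 187 and 18.5% of the 108. Peak heights of the far-reaching sites had medians of 1.98 in replicate 1 and 1.58 in replicate 2, and those of the near sites 1.87 and 1.29. At least 50% of the footprint was marked as a repeat in 28.2% of the far-reaching sites and 9.02% of the near ones, and whether repeats differ from other sequence in how reads were placed was not tested. The far form made up 7.69% of the sites with word B, 7.53% with word D and 7.30% with word E, against 2.89% with word A and 2.26% with word C.

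The matches had no preferred strand but a pattern with distance. Of the 4057, 2019 lay on the plus and 2038 on the minus strand. Neighbouring matches on a chromosome made 4037 pairs, with a median gap of 240.2 kb. Of these pairs, 48.03% lay on the same strand, 25.98% pointed towards each other (convergent) and 25.98% away from each other (divergent). Along a chromosome, convergent and divergent pairs must alternate, apart from same-strand pairs in between. Their totals are thus near equal by construction, and an excess of one at some gaps is made up by the other at different gaps. At gaps of 5 to 20 kb, 7.73% of 207 pairs were convergent (95% interval 4.48% to 12.2%) and 40.6% divergent (33.8% to 47.6%). At 500 kb or more, 29.9% of 1198 were convergent (27.3% to 32.6%) and 21.8% divergent (19.5% to 24.2%). As background, the anchors of chromatin loops made by CTCF and cohesin usually carry convergent matches. Loops were not measured here, and CTCF matches outside the chosen sites were not counted.

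**Figure D3:**
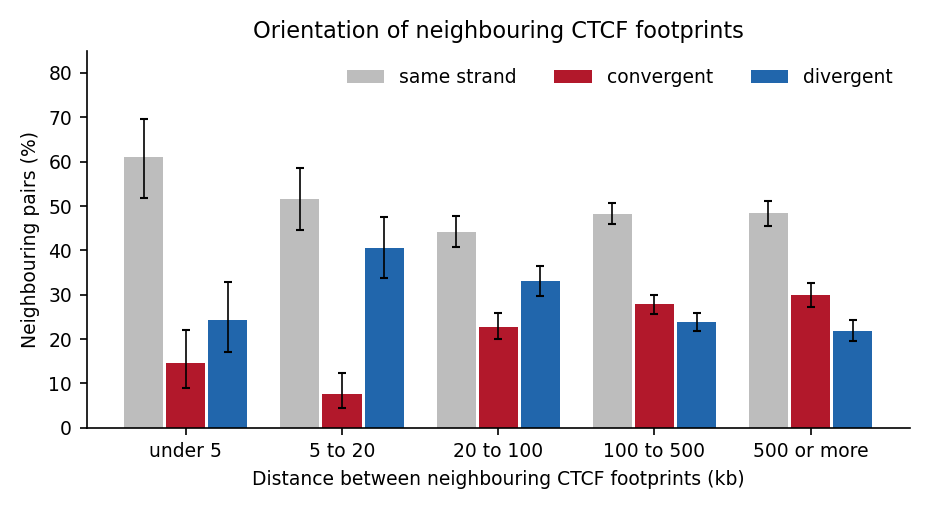
Share of neighbouring pairs of CTCF footprints (vertical axis, %) on the same strand, convergent or divergent, by the distance between them in kb (horizontal axis), with exact 95% binomial intervals. Divergent pairs outnumber convergent ones at 5 to 20 kb (40.6% against 7.73%), and the order is turned round at 500 kb or more (21.8% against 29.9%). Both kinds alternate along a chromosome, so an excess of one at some distances is made up by the other at different distances.

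The remaining matches were far fewer, and several overlapped CTCF. The single NFI site TTGGCA was found in 513 leading footprints (4.44%), in 2.06% of the stretches beside them and in 7.16% of the windows of 30 bp in other distal peaks, which was the highest of these shares. RUNX, the family of TGTGGT-binding factors, had 430 (3.72%, against 2.07% beside and 1.66% of the windows), but 59.1% of these matches overlapped a CTCF match with all letters or all but 1. NFY, which binds CCAAT boxes, had 373 (3.23%), and the stretches beside held it in 3.66% and the windows in 4.32%. YY1, a zinc finger factor, had 125 (1.08%, against 0.139% beside and 0.297% of the windows), of which 89.6% overlapped a CTCF match, as the shared letters of both consensuses allow. In all, 5637 sites (48.8%) held at least 1 of the 32 consensuses searched.

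REST and the NFI palindrome were rare in the footprints and rarer beside them. The full REST consensus lay in 100 leading footprints (0.866%) and in 0 of 11540 stretches beside them, which allows up to 0.032% there by the exact interval. With 1 letter changed allowed, the counts were 182 and 3, and the share of the windows 0.479% against 1.58% of the leading footprints. The palindrome of NFI, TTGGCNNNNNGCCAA, was found in 26 leading footprints, or in 442 (3.83%) with 1 letter changed allowed, against 4 of the stretches beside (0.035%) and 2.08% of the windows. Motifs of factors known from the adrenal cortex had no common pattern. The cyclic AMP response element (CRE, TGACGTCA), the site of the Creb1 and Crem proteins, lay in 25 leading footprints (0.217%), in 1 of the stretches beside (0.00867%) and in 0.169% of the windows. NR5A, the site of steroidogenic factor 1 (CAAGGNCA), lay in 113 leading footprints (0.979%), 0.945% of the stretches beside and 2.83% of the windows, and AP-1 (TGANTCA) in 56 (0.485%), 1.09% and 2.21%. The glucocorticoid receptor site GNACANNNTGTNC was found in 1 leading footprint and in 4 of the stretches beside.

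Sites over tRNA genes had high peaks. The starts used by the rule were those of GENCODE M21, so a peak counted as distal can lie over a tRNA gene annotated by RefSeq. Of 403 tRNA genes annotated by RefSeq, 131 overlapped a distal shared peak, in 129 peaks. Of these 129 peaks, 100 were among the chosen sites, and 29 were not. The rule was met by 43.4% of all distal shared peaks and by 79.5% of those in the highest of 5 equal bins of height. The part of height in the count at tRNA genes was not tested. The 100 had median heights of 4.68 in replicate 1 and 2.72 in replicate 2, and the 29 others 2.05 and 1.25. Of the 100, chromosomes 13 and 11 held 25 each. The leading footprint itself overlapped the tRNA gene in 63 sites, and the B box consensus lay inside it in 22 of them. Over all chosen sites, the B box lay in 22 of 11545 leading footprints and in 6 of 11540 stretches beside them. Many tRNA genes are near-identical copies: the central 20 bases of the footprint occurred once in the genome in 52.5% of 61 sites assigned to tRNA genes, against 90.03% of all chosen sites. The part of such copies in the heights was not tested.

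Every site was given to 1 class by the sequence of its leading footprint, in the order CTCF, tRNA gene, REST and NFI palindrome, so that sites with none of them could be described. CTCF with all letters took 4057 sites and CTCF with 1 changed took 3362. NFI took 415 (3.59%) and REST 181 (1.57%), each with all letters or all but 1, and tRNA genes took 61 (0.528%). All letters were matched in only 26 leading footprints for the NFI palindrome and in 100 for REST. None of these applied to 3469 sites (30.0%). The CTCF classes had a median footprint of 30 bp in both replicates, REST 29 bp in replicate 1 and 28 bp in replicate 2, NFI 26 and 24 bp, tRNA genes 40 and 36 bp, and the unassigned sites 27 and 25 bp.

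Peak height moved with the rule, and whether the height of a peak bears on the call of a long footprint was not tested. The chosen sites had median heights, in the authors' normalised signal, of 2.02 in replicate 1 and 1.27 in replicate 2, and the other distal peaks 1.19 and 0.682. The chosen sites ranged between 0.341 and 38.9 in replicate 1 and between 0.310 and 30.02 in replicate 2, and the ranges of both sets overlapped. When all distal peaks were sorted into 5 equal bins by their mean height, the share that met the rule was 10.4% in the lowest bin, 26.8%, 39.6% and 60.6% in the next ones and 79.5% in the highest.

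CTCF matches were more frequent in the chosen sites at every height. Within 75 bp of the centre of the peak region, 20.1% of all distal shared peaks held the full CTCF consensus, and 35.6% of the chosen sites and 8.21% of the others did. In the 5 bins, low to high, the share was 37.1%, 36.7%, 35.6%, 37.9% and 33.4% in the chosen sites, and 10.5%, 8.36%, 7.58%, 5.62% and 4.58% in the other peaks. The exact 95% intervals of both sets did not overlap in any bin. The plot by height shows that the share meeting the rule grew with height, while the CTCF share in the chosen sites was lowest in the highest bin.

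**Figure D4:**
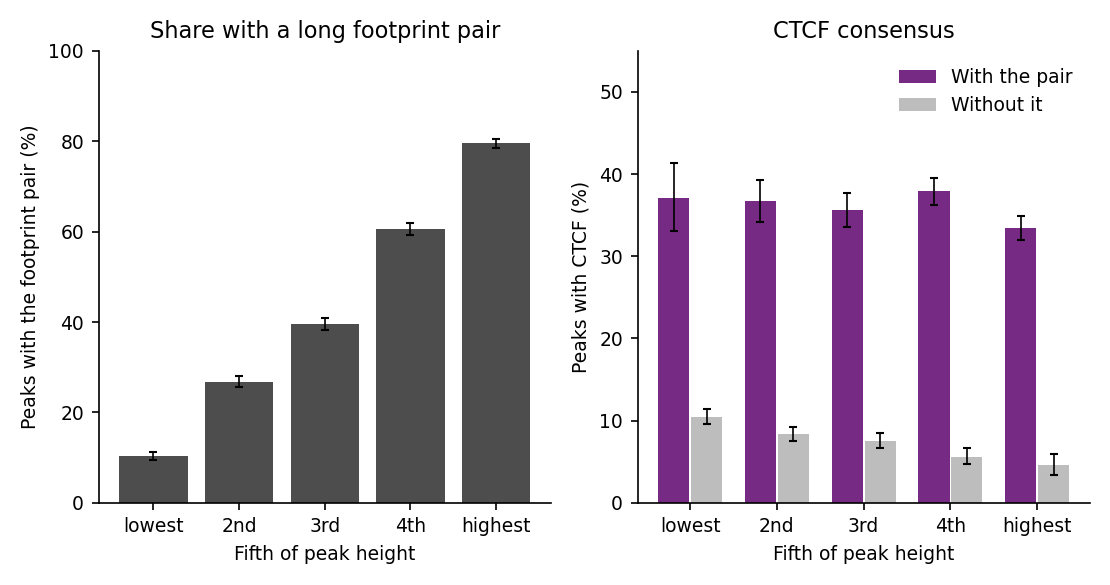
Left: share of distal shared peaks (vertical axis, %) that hold a pair of long footprints, in 5 equal bins of peak height, from 10.4% to 79.5%. Right: share with the CTCF consensus within 75 bp of the centre in peaks with the pair and in peaks without it, with exact 95% binomial intervals in both panels. The peaks with the pair lie between 33.4% and 37.9%, and those without it between 4.58% and 10.5%.

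Several other motifs were less frequent around the chosen sites than in the other distal peaks. Within 75 bp of the long footprint, NR5A was found in 5.67% of the chosen sites and within 75 bp of the centre in 11.2% of the others. AP-1 was found in 5.25% and 9.99%, and the single NFI site in 12.5% and 20.5%. YY1 was more frequent (1.75% and 0.776%), as was RUNX (11.98% and 9.69%), both of which share letters or footprints with CTCF. In each of the 5 height bins these 5 motifs kept their order between the sets. In the highest bin, for example, NR5A was found in 5.98% of the chosen sites and 10.8% of the others.

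Most sites were higher in replicate 1, and by how much differed with the class. Of the chosen sites 94.2% were higher in replicate 1, against 93.7% of the other distal peaks and 93.9% of all distal shared peaks, so this count only shows the offset that all sites shared. On the log2 scale, replicate 1 exceeded replicate 2 by a median of 0.63 in the chosen sites and 0.77 in the others. Sites with CTCF (all letters or all but 1) had 0.51, with the middle 50% between 0.29 and 0.75. Sites with the NFI palindrome (all letters or all but 1) had 1.14 (0.89 to 1.33), and unassigned sites 0.93 (0.60 to 1.24). With 2 samples there is no estimate of how this ratio varies between animals, and no test was made.

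The order of the classes was the same at every height. In the highest bin the median of this log2 ratio was 0.58 at CTCF sites, 1.24 at NFI sites, 1.02 at unassigned sites and 1.03 in peaks without a long pair. In the lowest bin it was 0.35, 0.69, 0.51 and 0.51, with 16 NFI sites. The medians of CTCF sites were below and those of NFI sites above the peaks without a long pair in all 5 bins. The plot of ratios by class shows this order and its growth with height in each class.

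**Figure D5:**
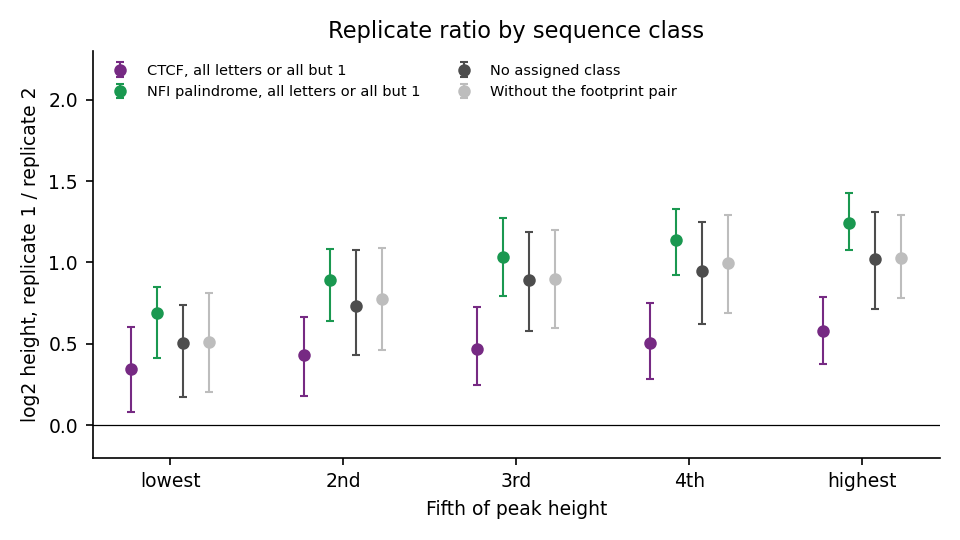
Median log2 ratio of peak height, replicate 1 over replicate 2 (vertical axis), in 5 equal bins of height (horizontal axis) for CTCF sites, NFI palindrome sites, unassigned sites and peaks without a long footprint pair, with lines over the middle 50% of sites. CTCF sites are lowest in each bin (0.35 to 0.58) and NFI sites highest (0.69 to 1.24). The CTCF and NFI sites are those with all letters or all but 1.

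The highest sites were mostly outside the named classes. The central 20 bases matched an annotated ribosomal RNA gene at 2 chosen sites and at none of the 10 highest or 10 longest. The annotated genes searched did not include the whole of 28S rRNA, so whether some of the highest and longest sites, the printed Myl12b and Cdh20 stretches included, are copies of ribosomal RNA sequence was not tested. The 10 sites with the highest lower-of-both heights were led by a site 21464 bp from the nearest protein-coding gene, Igf2bp3, with 38.9 in replicate 1 and 30.02 in replicate 2. A site near Il31ra had 29.9 in replicate 1 and 25.2 in replicate 2. Sites near Gm8797 (21.9 and 18.7) and Jarid2 (20.6 and 18.6) followed, all higher in replicate 1. The central 20 bases of these 4 footprints occurred 4, 4, 8 and 6 times in the genome, and the part of these copies in the heights was not tested. A site near Hic2 was the only one of the 10 that was higher in replicate 2, with 9.80 in replicate 1 and 10.4 in replicate 2. The others of the 10 lay near Pak3, Gphn, Gm21887, Alox5ap and Cdh20, and of these the Gm21887 site held a CTCF match with 1 letter changed. The peak of the Alox5ap site lay over a tRNA gene, but its leading footprint did not. The central 20 bases occurred 5 times for the Hic2 site, 6 for Gphn and 10 for Gm21887. For Pak3, Alox5ap and Cdh20 they occurred 1 time each. The part of these copies in the heights was not tested either.

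The longest footprints were often over tRNA genes. Among the 10 longest shared stretches, 4 overlapped a tRNA gene, those near Eef2k, Commd3, Rnase4 and Zfp213. The Eef2k site, with 59 shared bp, had peak heights of 8.70 in replicate 1 and 5.72 in replicate 2. Besides the stretches near Myl12b and Col18a1 printed above, the list held a site near Cdh20 that was also among the 10 highest, a second site near Rnase4 with a CTCF match of 1 letter changed, and a site near Gm21119. All 10 were higher in replicate 1.

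Chosen sites were spread over introns and the space between genes much like the other distal peaks. By the centre of the region, introns held 44.8% of the chosen sites and 47.4% of the others, exons 7.09% and 7.12%, and the space between genes 48.1% and 45.5%. The median distance to the nearest start of any GENCODE M21 gene was 9593 bp, against 11754 bp, and 8.17% lay more than 50 kb away, against 12.2%. The order of these distances depended on height. In the lowest of 5 height bins the median was 17223 bp for the chosen sites and 18145 bp for the others, and in the highest 7728 bp and 6109 bp, with the chosen sites farther away in the 4 upper bins.

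Genes with many chosen sites were mostly neighbours of tRNA genes. Of 21911 protein-coding genes, 11465 (52.3%) had a chosen site within 50 kb of a start. Tmem107 had the most, 15 of 17 distal peaks, and 11 of the 15 overlapped tRNA genes. Its neighbours on chromosome 11 counted partly the same sites. They were Aurkb (14 of 16), Borcs6 (13 of 15), Ctc1 (13 of 15), Vamp2 (13 of 14) and Pfas (9 of 11). Trim27 on chromosome 13 had 12 of 13 distal peaks, with 8 over tRNA genes, and Olfr750 on chromosome 14 had 9 of 11, with 5 over them. Klrb1c on chromosome 6, a natural killer cell receptor gene, had 10 of 10 distal peaks and Gse1 on chromosome 8 had 9 of 20, none over a tRNA gene. Of all distal shared peaks, 43.4% were chosen, so the count at Gse1 goes with its many distal peaks.

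Genes of the gland's hormone pathways had chosen sites about as often as all genes. On the steroidogenesis list, 9 of 17 genes had one (all genes 52.3%), with a mean of 1.35 sites per gene against 0.978 for all protein-coding genes. Scarb1, through which cells take up cholesterol esters of lipoproteins, had 6 of 7 distal peaks, the highest at 4.53 in replicate 1 and 2.36 in replicate 2. Fdxr, which passes electrons to mitochondrial P450 enzymes, had 3 of 4, Por, which does so for microsomal P450 enzymes, 3 of 6, and Cyp11a1, which makes the first cut in cholesterol, 3 of 4. On the chromaffin list, genes of the catecholamine-making medulla, 10 of 20 had a chosen site. Th, which starts catecholamine synthesis from tyrosine, had 3 of 4 and Ddc, the next one, 3 of 5. Pnmt, which makes adrenaline, had 2 of 4, both with the full CTCF consensus, and Chga, a granule protein, 2 of 2.

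Among the regulators of the cortex, 10 of 22 genes had a chosen site. The orphan receptor gene Nr4a1 had 4 of 8 distal peaks, the signal gene Shh 2 of 3, Znrf3, which limits Wnt signalling, 2 of 5, and Prkar1a, a regulatory subunit of protein kinase A, 2 of 4. Genes of the response to glucocorticoids had them at 13 of 14, clock genes at 13 of 16 and immediate early genes at 13 of 16, with means of 3.14, 2.31 and 2.25 per gene. These lists also had more distal shared peaks in all, with means of 5.50, 4.50 and 4.50 per gene against 1.95 for all protein-coding genes. Per1, a clock repressor on 2 of these lists, had 9 of 10, of which 6 lay over tRNA genes. Klf15 had 6 of 8 and the co-chaperone gene Fkbp5 5 of 8, of which 4 held the full CTCF consensus. Ddit4 had 5 of 11, Nr1d1 5 of 10, Arntl 5 of 8, Dbp 3 of 3, Fosb 5 of 9, Gadd45b 5 of 9, Jund 4 of 6 and Fos 3 of 4.

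Counts on the lists of other cell types stand beside the 52.3% of all protein-coding genes that had a chosen site, and nothing particular to a cell type is read from them. On the endothelial list, 5 of 10 genes had one, with Plvap at 4 of 6 distal peaks, Pecam1 at 4 of 5, Eng at 3 of 5 and Flt1 at 3 of 7. On the blood and immune list, 6 of 9 did, although none of the 9 had a shared promoter peak. The blood gene with the highest site was Spi1 (9.06 in replicate 1 and 5.69 in replicate 2), and that site is the Mybpc3 site with the CTCF match printed above, so a site near a marker gene need not bear on that marker. Hba-a1 had 3 of 3 and Adgre1 3 of 4. On the capsule and fibroblast list, 6 of 10 did, with Pdgfrb at 2 of 3 and Col1a1, Postn and Pdgfra at 1 each. On the adipocyte list, 7 of 10 did, with Prdm16 at 3 of 10, Plin1 at 3 of 5, Plin4 at 2 of 2 and Cidea at 2 of 4. Among housekeeping genes, 7 of 12 did, with Actb at 5 of 9, Rplp0 at 3 of 3 and Ppia at 3 of 5. The genes of CTCF and cohesin had them at 3 of 11, namely Ctcf at 4 of 7, Stag1 at 2 of 3 and Smc3 at 1 of 2. The part of each cell type in the sites was not tested.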

How the data were processed

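DNase-seq of 2 samples was used. Per the labels and the deposited file notes, peaks and footprints were derived from alignments of 1 sample each on mm10, without pooling. The software for alignment and calling is not given in the sources used here, nor whether the footprint calls allowed for the sequence preference of DNase I. Peak heights are a signal normalised by the authors, and the deposited footprint lists carry a p-value of 0.01, taken as the calling threshold. Reads of both parental strains were aligned to the C57BL/6J sequence of mm10, so CAST/EiJ alleles with differing bases can lose signal. Read totals were not used.

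Peaks overlapping by 1 bp were merged, and the highest peak per replicate gave the height. Starts came from GENCODE M21, named in the submitters' processing notes, and sequence, tRNA genes and repeat marks from RefSeq. Motifs were matched on both strands. Shares carry exact (Clopper-Pearson) 95% intervals, for counting error only. Overlap and motif code was tested on simulated data. Python 3.11.15, numpy 2.4.6, pandas 2.3.3 and scipy 1.17.1 were used.

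The chosen sites, 12 gene lists (167 entries) and 32 motifs were selected with earlier results of these data known. Named genes are the nearest protein-coding genes of the 10 longest and 10 highest sites, up to 4 genes per list with the most sites, and the 10 genes with the most sites of all (ties at 9 broken by distal peaks, then name). Some genes and 1 sequence that this rule names are not reported here. Alternatives covered footprint length, peak list, distance, overlap, height, motif letters and single replicates.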

Additional observations from a re-analysis of the deposited data

How the results depend on the processing

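The sites come from 2 samples of 1 group, so no value carries an error between animals. No paired analysis was possible because there is 1 group. Of 97 values under 15 other settings, 63 stayed within their interval or limit. The limit was 1.5 times for the number of sites and 0.529 for heights, the SD between replicates of the median. This height limit came from the offset between the 2 replicates and was wide beside their medians of 2.02 and 1.27. Only the log2 ratio of the replicates could be scored as reversed, and 0 of its values were. The causes of the values outside their interval or limit were not tested, unless the setting itself gives them.

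With footprints of 18 bp or longer the share of distal peaks was 47.7%, the CTCF share 33.7% and the median log2 ratio 0.64. With 25 bp they were 29.1%, 41.1% and 0.57, with 43.3% in introns and a median distance of 9244 bp. With 30 bp there were 3401 sites (12.8%), with CTCF in 42.6%, 42.4% in introns, 8733 bp and a ratio of 0.53. The longer peak list gave 24.8% of distal peaks. At 500 bp from every start the share was 42.4% and the distance 8643 bp, and at 2 kb the distance was 11252 bp. Among the 50% highest peaks 7337 sites (74.4%) met the rule, with CTCF in 36.7%, 43.2% in introns, 8175 bp, a replicate 1 height of 2.57 and a ratio of 0.61. The stricter CTCF consensus gave 24.6%, and all letters or all but 1 gave 64.3%.

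With each replicate left out in turn, all distal peaks of the other replicate were used, shared or not. Sites then numbered 13093 (without replicate 1) and 23231 (without replicate 2), which were 44.2% and 34.9% of those peaks. CTCF was found in 33.4% and 21.3%, introns held 44.9% and 48.1%, the distance was 9758 and 10213 bp, and the heights were 1.202 in replicate 2 and 1.497 in replicate 1. Without replicate 2 there were thus more sites and a lower CTCF share. That setting dropped both the shared peaks and the overlapping footprints, and the part of each was not tested.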

Other observations

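The share of distal shared peaks that met the rule lay between 37.6% on chromosome 16 and 46.7% on chromosome 7 among the autosomes and was 40.1% on the X chromosome. Chromosome 11 was the densest, with 7.67 sites per Mb. On the Y chromosome, in animals labelled female, 1 of 7 distal shared peaks met the rule.

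The central 20 bases of the leading footprint occurred once in the reference genome in 90.03% of the chosen sites, and those at the centre of the other distal peaks in 94.6%. Among the classes this share was 84.6% for CTCF with all letters and 93.1% for CTCF with 1 letter changed. It was 97.3% for the NFI palindrome and 64.6% for REST, each with all letters or all but 1. For tRNA genes it was 52.5% and for unassigned sites 94.6%. The REST consensus fixes 13 letters, and the part of this in its share was not tested. Footprints of which at least 50% was marked as a repeat made up 12.3% of CTCF sites with all letters, 3.45% of those with 1 letter changed and 6.88% of all chosen sites.

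The REST sites were lower than the other classes, with median heights of 1.32 in replicate 1 and 0.992 in replicate 2, and lay farther from gene starts, with a median distance of 13493 bp against 9593 bp for all chosen sites.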
